A study of Mus musculus with 6 samples.

Results

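The 45 genes described here encode proteins that repair DNA or stop the cell cycle when DNA is damaged. They were taken by symbol from a table of 26608 genes measured in mouse liver, and all 45 had a row and passed the filter on low counts. Their roles were 16 genes of homologous recombination and the Fanconi pathway, 4 of mismatch repair, 9 of nucleotide excision repair, 4 of base excision and strand break sealing, 3 of end joining, 4 translesion polymerases, and 5 checkpoint genes. Livers of 3 mice of the genotype LiKM and 3 of the genotype LiK, all aged 6 weeks, were sequenced as bulk tissue. The labels do not spell the genotypes out and name no strain, sex or Cre driver. The published study is understood to have removed Mdm2, the ubiquitin ligase that keeps p53 low, from LiKM hepatocytes, which the labels do not state and which was not checked here. What LiK stands for is not described here. The comparison asks how the LiKM liver differs from the LiK liver.

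Cells mend different lesions by different routes. Homologous recombination copies an intact sister chromatid to mend breaks across both strands, and the Fanconi proteins unhook crosslinks that block the replication fork. Mismatch repair removes copying errors, excision repair cuts out damaged bases or bulky lesions, and end joining ligates broken ends at any time in the cell cycle. Translesion polymerases copy past damaged bases. The kinases Atm and Atr sense breaks and stalled forks and act through Chek2 and Chek1. Recombination, crosslink and mismatch repair genes are known to be transcribed mainly in dividing cells, whereas most hepatocytes of the adult liver rest.

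The LiKM libraries held between 19909993 and 20762712 counts, and the LiK libraries between 20778717 and 24874343. Mdm2, the gene understood to be removed from LiKM hepatocytes, had 122, 125 and 60.5 CPM in LiKM 1, 2 and 3. In LiK 1, 2 and 3 it had 28.7, 29.0 and 28.6 CPM. CPM is a gene's read count scaled to library size by TMM. Mdm2 rose by 1.83 on the log2 scale (SE 0.27, edgeR adjusted p = 0.0196). Counts summed over a gene cannot show whether part of it is deleted, so this higher level neither shows nor contradicts a deletion, and the genotypes rest on the labels. LiKM 3 stood apart from the other LiKM libraries, with a correlation of log2 CPM across genes of 0.965 and 0.968 with LiKM 1 and LiKM 2, while those correlated at 0.983. LiK 3 lay somewhat apart from LiK 1 and LiK 2 (0.976 and 0.978, against 0.982 between those). Hepatocyte markers were abundant in every library, with summed levels of 125580 to 143810 CPM in LiKM and 121560 to 145570 CPM in LiK. Most of each sum was Alb, at 91378 to 103220 CPM in LiKM and 80638 to 101780 CPM in LiK.

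Of the 45 genes, 9 were higher (20%), 0 were lower and 36 did not pass edgeR's quasi-likelihood test at a Benjamini-Hochberg adjusted p under 0.05, while 5.92% of all 13537 genes tested were called, 5.11% higher and 0.813% lower. At an unadjusted p under 0.05 there were 20 of the 45, against 22.4% of all genes. The 45 genes were chosen with earlier results of these data known. Of the 9 called, 5 passed the filter only through LiKM, so the share called holds a built-in difference. The 9 were Bard1, Rad54b, Fanca and Fancd2 of recombination and crosslink repair, Exo1 and Msh6 of mismatch repair, the DNA ligase gene Lig1, the translesion polymerase gene Polk, and Clspn, the adaptor through which Atr activates Chek1. None of the nucleotide excision or end joining genes was called by edgeR. The median log2 fold change of the 45 was 0.34, against −0.0034 over all genes tested, and 14 had fitted levels at least 2-fold higher (31.1%), against 8.54% of all genes. Every LiKM library was above every LiK library in 19 of the 45 (42.2%) and below in 2, Msh3 and Ercc6. Over all genes tested 29.6% did not overlap, 17.8% with LiKM above and 11.8% with LiKM below. In bulk tissue, fewer cells of a type and less RNA per cell cannot be told apart.

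**Figure D1:**
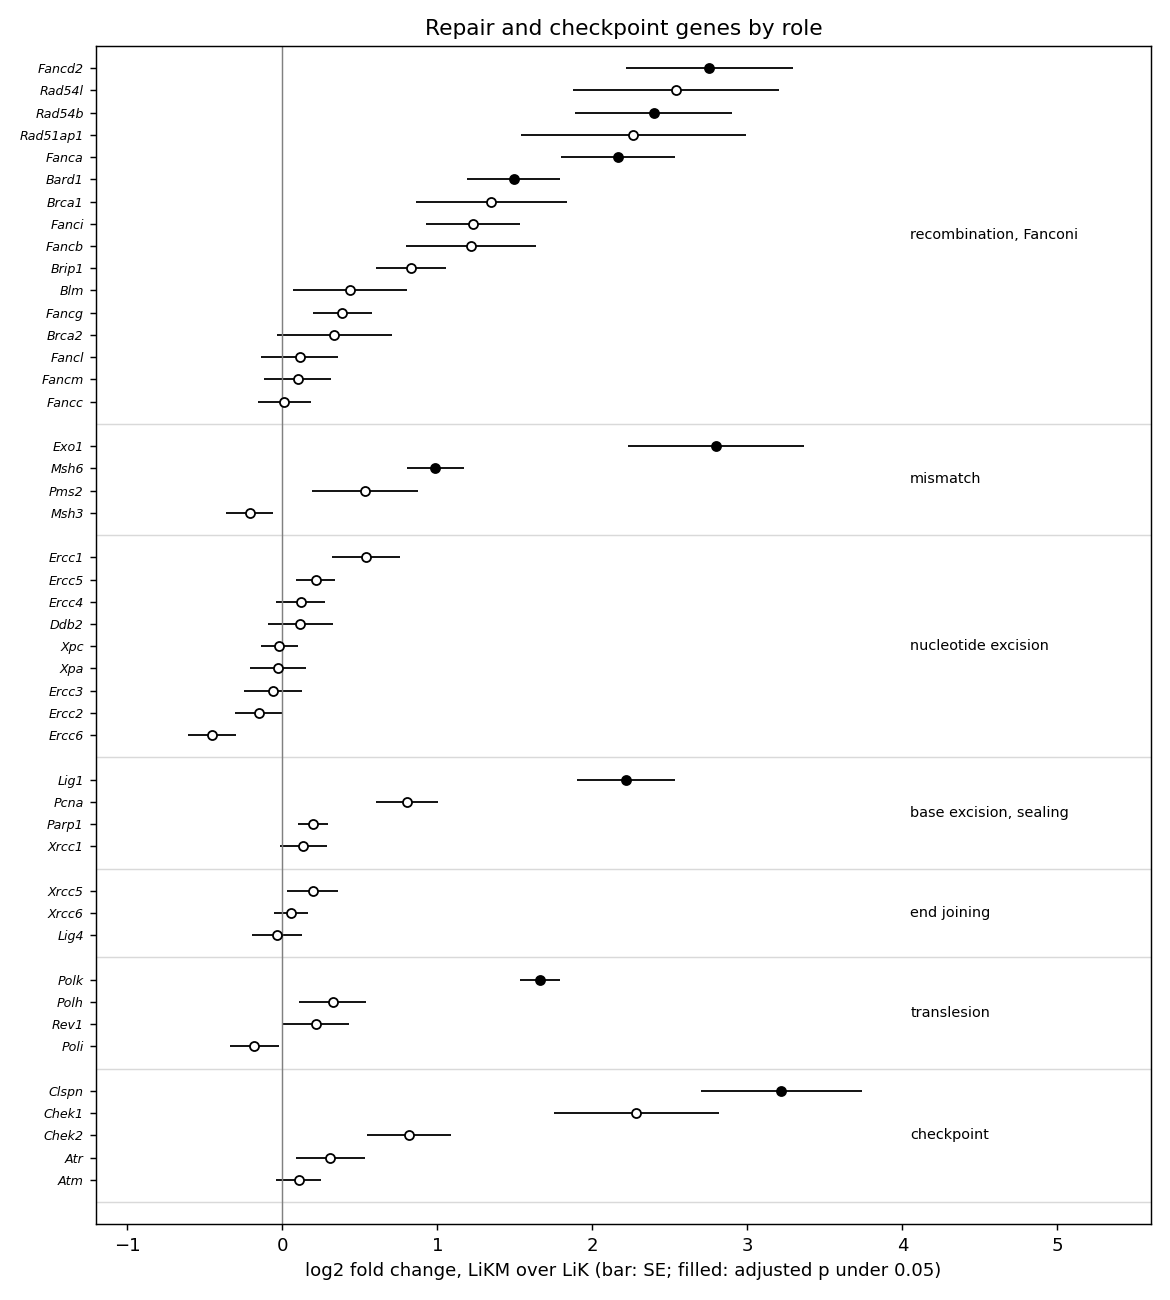
Log2 fold change of LiKM over LiK (x axis, bars are standard errors, 3 mice per genotype) for each of the 45 genes (y axis), grouped by role, with filled points for an adjusted p under 0.05. Filled points lie between 0.99 (Msh6) and 3.22 (Clspn), and nucleotide excision and end joining genes lie between −0.46 and 0.54.

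Some of the higher members were scarce in LiK. Bard1, Rad51ap1, Rad54l, Rad54b, Fancd2, Exo1 and Clspn reached the filter's level of 0.481 CPM (on unscaled library totals) in all 3 LiKM libraries but not in all 3 LiK libraries. These 7 genes passed the filter only through LiKM, so a difference was built into their passing, and 5 of them were among the 9 called. All 7 were also among the 14 genes at least 2-fold higher and the 19 with every LiKM library above. They were among the 20 with an unadjusted p under 0.05 as well. Those shares therefore hold the same built-in difference. The other 38 genes reached that level in every library, and 4 of them were called: Fanca, Msh6, Lig1 and Polk. Over all genes tested 5.11% were called higher.

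The promoters of the members were searched for short words known from cell cycle and p53 regulation. RefSeq windows of GRCm38.p6 from 250 bases before to 50 bases after the first listed transcription start were found for 38 of the 45 genes, and for 9520 of the 13537 genes tested. Windows of Rad54b, Fancd2, Exo1, Xpc, Ercc3, Ddb2 and Poli were not used here. E2F factors drive S phase genes, and the words searched for them were TTTCCCGC, TTTGGCGC, TTTCGCGC and TTTGCCGC on both strands. Any of these stood in 8 of 38 member windows (21.1%) and in 3.99% of all windows. Among members with a window, 3 of 6 called genes and 5 of 32 uncalled genes held one. The 30 bases around the word are shown for the called genes first and then for uncalled ones, to show that the same letters occur in both, with the E2F word in capitals on either strand.
Bard1, called higher, chr1:71103163-71103192, minus strand: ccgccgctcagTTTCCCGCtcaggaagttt
Msh6, called higher, chr17:87975054-87975083, plus strand: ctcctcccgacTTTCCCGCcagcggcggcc
Clspn, called higher, chr4:126556990-126557019, plus strand: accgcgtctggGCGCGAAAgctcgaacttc
Brca2, not called, chr5:150522442-150522471, plus strand: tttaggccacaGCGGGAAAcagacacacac
Fancg, not called, chr4:43010335-43010364, minus strand: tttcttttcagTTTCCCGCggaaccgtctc
Msh3, not called, chr13:92355187-92355216, minus strand: ttgccgtcaagTTTGGCGCGAAAtcgcagc
Xrcc6, not called, chr15:82016312-82016341, plus strand: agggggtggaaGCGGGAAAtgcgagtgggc
Chek2, not called, chr5:110839820-110839849, plus strand: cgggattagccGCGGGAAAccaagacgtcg
In Msh3 the words TTTGGCGC and TTTCGCGC overlap on opposite strands. No other E2F word was found in the member windows searched, and these letters were not in those of Fanca, Lig1 or Polk. Lig1 has 3 listed windows, and Polk, Rad54l and Lig4 have 2 each. Only the first of each was searched, so words near the other starts would be missed.

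Words of other regulators were read in the same windows. The p53 half-site, the 10-base consensus of which p53 binds a pair, was found in 4 of 38 member windows (10.5%) and in 6.8% of all windows. It is palindromic as a consensus, so both strands were covered. The 30 bases around it are shown for the called genes Fanca and Polk and the uncalled genes Fancg and Brip1, with the half-site in capitals.
Fanca, called higher, chr8:123318621-123318650, minus strand: gggtgtggtcAAGCATGCTCctagccaatg
Polk, called higher, chr13:96519399-96519428, minus strand: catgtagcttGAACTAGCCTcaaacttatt
Fancg, not called, chr4:43010447-43010476, minus strand: cactcctcctAAACTAGCCTcaacactctg
Brip1, not called, chr11:86201378-86201407, minus strand: caaatgtgcgGAACTTGTCCcagtcttttt
The CCAAT word stood on either strand in 22 of 38 member windows (57.9%), against 38.9% of all windows. The word TTTGAA of the cell cycle homology region stood in 2 (5.26%), against 12.1%. These matches are letters in a window and were not tested as binding sites.

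Among homologous recombination and Fanconi genes, 4 of 16 rose in LiKM (25%), 0 fell and 12 were not called. Over all genes tested 5.11% were called higher. Of the 4, Bard1, Rad54b and Fancd2 passed the filter only through LiKM. All 16 log2 fold changes were positive, with a median of 1.22. Fancd2, which with Fanci forms the clamp that locks onto crosslinked DNA, had 1.41, 3.27 and 1.54 CPM in LiKM 1, 2 and 3, against 0.144, 0.252 and 0.492 CPM in LiK 1, 2 and 3. The genotypes did not overlap, and the LiK values rest on 3, 5 and 12 counts. Its log2 fold change was 2.75 (SE 0.54) with a Benjamini-Hochberg adjusted p of 0.0344 in edgeR. Fanca, a subunit of the core complex that ubiquitinates that clamp, had 4.04, 5.22 and 2.46 CPM in LiKM and 1.16, 0.805 and 0.657 CPM in LiK. It rose by 2.16 on the log2 scale (SE 0.37, edgeR adjusted p = 0.0251), with every LiKM library above every LiK library.

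Rad54b, a translocase that helps strand exchange, had 2.11, 4.13 and 1.93 CPM in LiKM and 0.578, 0.201 and 0.739 CPM in LiK, without overlap. Its log2 fold change was 2.39 (SE 0.50, edgeR adjusted p = 0.041), but it shares 2068 exon bases on the same strand with Fsbp in GENCODE M21, so its count is uncertain. Bard1, the partner of Brca1 in a ubiquitin ligase, had 1.504, 1.95 and 1.25 CPM in LiKM and 0.530, 0.604 and 0.533 CPM in LiK. The LiK values were tightly grouped, all below LiKM, and Bard1 rose by 1.49 (SE 0.30, edgeR adjusted p = 0.0365).

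Brca1 itself, which directs breaks into recombination, had 6.81, 10.7 and 3.13 CPM in LiKM and 1.59, 2.62 and 3.86 CPM in LiK. LiKM 3 lay below LiK 3, so the genotypes overlapped, and Brca1 missed the threshold (log2 fold change 1.35, SE 0.49, edgeR adjusted p = 0.162). Brca2, which acts in recombination after a break is resected, overlapped as well, at 6.77, 12.1 and 4.58 CPM in LiKM against 4.43, 6.44 and 7.67 CPM in LiK. Its log2 fold change was 0.34 (SE 0.37).

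A further 4 genes of this role had log2 fold changes above 1 without a call. Rad54l, a translocase related to Rad54b, had 2.11, 2.45 and 0.579 CPM in LiKM and 0.433, 0.101 and 0.328 CPM in LiK (log2 fold change 2.54, SE 0.66, edgeR adjusted p = 0.0716). Rad51ap1, which stimulates strand pairing, had 2.73, 2.63 and 0.771 CPM in LiKM and 0.530, 0.0503 and 0.657 CPM in LiK (2.26, SE 0.73, edgeR adjusted p = 0.122). In both genes LiKM 3 came close to the LiK libraries without overlapping them. Fanci, the partner of Fancd2, had 3.62, 3.63 and 2.56 CPM in LiKM and 1.93, 1.11 and 1.15 CPM in LiK (1.23, SE 0.30, edgeR adjusted p = 0.0621). Fancb, a core complex subunit, overlapped by LiK 3, with 1.83, 2.68 and 1.01 CPM in LiKM and 0.722, 0.604 and 1.03 CPM in LiK (1.22, SE 0.42, edgeR adjusted p = 0.145).

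Other Fanconi genes had fold changes near 0. Fancm, which anchors the core complex to DNA, had 5.03, 7.53 and 6.12 CPM in LiKM and 4.72, 6.64 and 6.07 CPM in LiK, with a log2 fold change of 0.10 and a 95% confidence interval of −0.41 to 0.61. Fancc and Fancl, also of the core complex, had log2 fold changes of 0.01 and 0.11, with intervals of −0.39 to 0.41 and −0.47 to 0.70. The intervals of all 3 lay below that of Fanca, which was 1.30 to 3.03, although the differences between genes were not tested. Fancg (0.39, SE 0.19), the helicase gene Brip1 (0.83, SE 0.23) and the Bloom helicase gene Blm (0.44, SE 0.37) were not called, and of these Blm overlapped between the genotypes.

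In mismatch repair 2 of 4 genes rose, while 5.11% of all genes tested were called higher. Of the 2, Exo1 passed the filter only through LiKM. Msh6, which with its partner recognises single mismatches, had 28.2, 36.0 and 22.5 CPM in LiKM and 13.7, 16.2 and 13.9 CPM in LiK. Every LiKM library was above every LiK library, and the log2 fold change was 0.99 (SE 0.19) with an edgeR adjusted p of 0.0318. Exo1, the exonuclease that removes the mismatched strand and also resects breaks, had 1.69, 2.72 and 0.820 CPM in LiKM and 0.385, 0.151 and 0.205 CPM in LiK, on 8, 3 and 5 LiK counts. It rose by 2.80 (SE 0.57, edgeR adjusted p = 0.0377), again without overlap.

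Msh3, which takes the place of Msh6 for larger loops, was not called. It had 10.4, 11.8 and 8.49 CPM in LiKM, against 11.8, 11.9 and 11.9 CPM in LiK, a log2 fold change of −0.21 (95% confidence interval −0.57 to 0.15). LiKM 2 lay just below the lowest LiK library, so the genotypes did not overlap, and the edgeR adjusted p was 0.461. Pms2, a subunit of the nicking complex, had 3.62, 3.04 and 1.74 CPM in LiKM and 1.88, 2.47 and 1.48 CPM in LiK, with LiKM 3 inside the LiK range (log2 fold change 0.53, SE 0.34, edgeR adjusted p = 0.407).

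None of the 9 nucleotide excision repair genes was called by edgeR, 2 had an unadjusted p under 0.05, and 7 overlapped between the genotypes. Over all genes tested 5.92% were called, 22.4% had an unadjusted p under 0.05 and 29.6% did not overlap. The counts in this group were thus near the shares of all genes. Ercc5, which makes the incision on the 3′ side of a lesion, had 23.9, 25.002 and 21.2 CPM in LiKM and 22.5, 18.9 and 19.0 CPM in LiK. Ercc3, a helicase of the transcription factor TFIIH, had 19.97, 23.5 and 16.6 CPM in LiKM and 20.9, 24.9 and 16.9 CPM in LiK. Their log2 fold changes were 0.21 (95% confidence interval −0.08 to 0.51) and −0.06 (−0.50 to 0.38). Xpc and Ddb2, damage sensors known as p53 targets in human cells, had log2 fold changes of −0.02 (−0.30 to 0.26) and 0.12 (−0.37 to 0.60).

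The ends of this group were Ercc1 and Ercc6. Ercc1, the partner of the nuclease Ercc4, had 3.76, 3.63 and 5.16 CPM in LiKM and 2.65, 2.77 and 3.20 CPM in LiK, without overlap (log2 fold change 0.54, SE 0.22, edgeR adjusted p = 0.207). Ercc6, which starts repair at stalled RNA polymerase, had 15.1, 14.1 and 18.4 CPM in LiKM and 22.9, 24.0 and 18.5 CPM in LiK, with LiKM 3 just below LiK 3 and so no overlap. Its log2 fold change was −0.46 (SE 0.16, edgeR adjusted p = 0.141), and limma-voom with sample weights called it lower (adjusted p = 0.0426). The other members, Xpa, Ercc2 and Ercc4, had log2 fold changes between −0.15 and 0.12.

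Of the 4 genes of base excision and strand break sealing, Lig1 rose, while 5.11% of all genes tested were called higher. Lig1, the ligase that seals Okazaki fragments and excision gaps, had 13.3, 14.5 and 6.70 CPM in LiKM, against 2.65, 2.06 and 2.71 CPM in LiK. LiKM 3 was well below the other LiKM libraries, and the genotypes did not overlap. The log2 fold change was 2.21 (SE 0.32) with an edgeR adjusted p of 0.0184. Pcna, the sliding clamp of replication and repair, had 44.0, 45.5 and 26.8 CPM in LiKM and 22.3, 22.0 and 22.3 CPM in LiK. The LiK libraries were nearly equal and all below LiKM, but LiKM 3 was far from the other LiKM libraries and the gene missed the threshold (0.80, SE 0.20, edgeR adjusted p = 0.0631). Parp1, a sensor of strand breaks, had 50.4, 53.1 and 48.5 CPM in LiKM and 45.6, 44.9 and 41.9 CPM in LiK (0.20, SE 0.10, edgeR adjusted p = 0.278). The scaffold gene Xrcc1 had a log2 fold change of 0.14 (SE 0.15).

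The 3 end joining genes were not called by edgeR, 0 of them had an unadjusted p under 0.05, and all 3 overlapped between the genotypes. Over all genes tested 5.92% were called and 29.6% did not overlap, so counts from 3 genes do not set this group apart. Xrcc6 and Xrcc5 encode the Ku ring that holds broken ends. Xrcc6 had 18.5, 17.9 and 16.4 CPM in LiKM and 17.96, 16.5 and 16.3 CPM in LiK (log2 fold change 0.06, 95% confidence interval −0.21 to 0.32). Xrcc5 had 19.7, 27.0 and 19.7 CPM in LiKM and 18.2, 17.9 and 21.9 CPM in LiK (0.20, −0.19 to 0.58). The ligase gene Lig4 had a log2 fold change of −0.03 (−0.41 to 0.34), so changes of 2-fold in either direction lay outside the intervals of all 3 genes.

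Polk stood out among the translesion polymerases. It encodes a polymerase that extends past bulky guanine adducts, and in mouse cells it is known as a p53 target. Its levels were 16.6, 18.4 and 17.2 CPM in LiKM and 5.20, 5.89 and 5.42 CPM in LiK, so the libraries of each genotype were close together and far from the other genotype. The mean was 17.4 ± 0.913 CPM in LiKM and 5.50 ± 0.352 CPM in LiK (SD, n = 3 each). The 3.17-fold difference (log2 fold change 1.66, SE 0.13) had an edgeR adjusted p of 0.00482 and ranked 7 among the 13537 genes by p.

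The other Y-family polymerases were not called. Rev1, the scaffold on which they gather, had 15.8, 20.9 and 11.9 CPM in LiKM and 14.8, 14.6 and 12.4 CPM in LiK (log2 fold change 0.22, 95% confidence interval −0.28 to 0.72). Poli had 6.58, 6.44 and 6.17 CPM in LiKM and 8.28, 6.29 and 7.18 CPM in LiK (−0.18, −0.56 to 0.19). Polh, which copies past ultraviolet dimers, had a log2 fold change of 0.32 (−0.19 to 0.84). All 3 intervals lay below that of Polk, 1.37 to 1.96, and the genotypes overlapped in each of the 3.

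**Figure D2:**
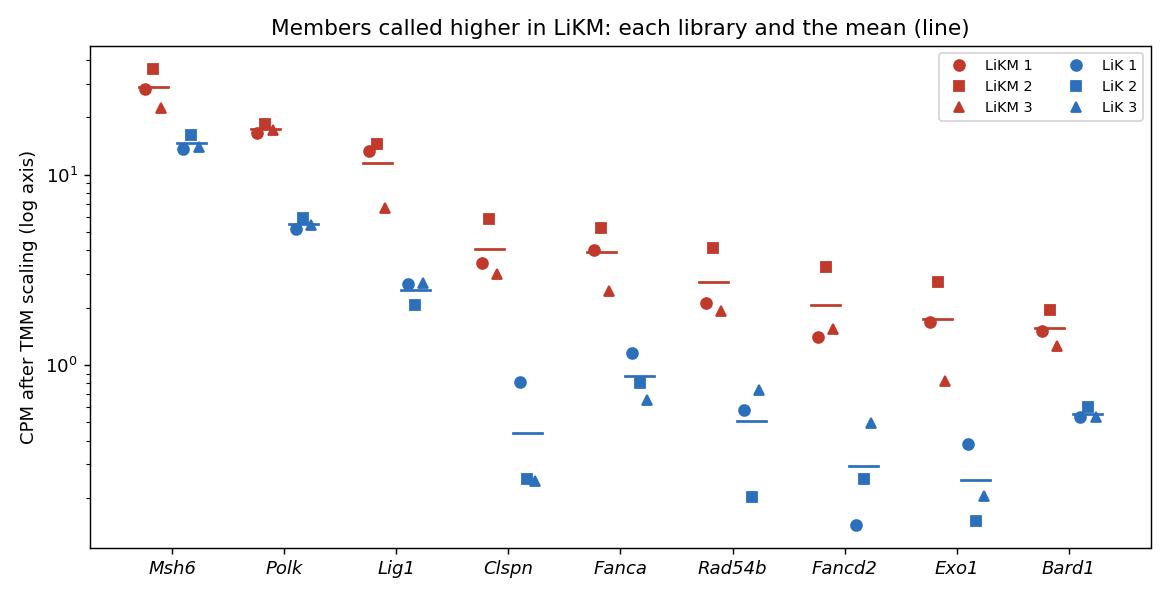
CPM after TMM scaling (y axis, log scale) of the 9 genes called higher (x axis, ordered by LiKM mean), with LiKM libraries in red left of LiK libraries in blue and a line at each mean. The genotypes do not overlap in any of the 9 genes, and the LiKM points of Polk lie close together, at 16.6 to 18.4 CPM.

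Among the 5 checkpoint genes Clspn rose and the 4 kinase genes were not called, while 5.11% of all genes tested were called higher. Clspn passed the filter only through LiKM. Clspn had 3.43, 5.85 and 2.99 CPM in LiKM and 0.819, 0.252 and 0.246 CPM in LiK, on 17, 5 and 6 LiK counts. No library overlapped, and the log2 fold change of 3.22 (SE 0.52, edgeR adjusted p = 0.0226) was the largest of the 45 genes. Chek1, the kinase that Clspn presents to Atr, had 4.37, 6.67 and 1.54 CPM in LiKM and 1.01, 0.654 and 0.903 CPM in LiK. All LiKM libraries were above LiK, with LiKM 3 nearest, and the gene narrowly missed the threshold (2.28, SE 0.53, edgeR adjusted p = 0.0533).

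Atr had 14.8, 23.3 and 13.02 CPM in LiKM and 14.3, 13.03 and 13.8 CPM in LiK, so LiKM 2 alone was high (log2 fold change 0.31, 95% confidence interval −0.21 to 0.83). Atm, which senses breaks, had 13.7, 13.7 and 11.8 CPM in LiKM and 10.5, 13.2 and 12.7 CPM in LiK (0.10, −0.23 to 0.44). Chek2, the kinase downstream of Atm, had a log2 fold change of 0.82 (SE 0.27) without overlap and was not called (edgeR adjusted p = 0.131).

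Levels of different genes can be compared only per length, here as CPM per kilobase of the exons in GENCODE M21, which may differ from the annotation the authors used. On that scale Pcna was the most abundant of the 45 genes in both genotypes, at 16.2 ± 4.33 in LiKM and 9.25 ± 0.0781 in LiK (SD, n = 3 each). Parp1 came next, at 9.57 ± 0.445 in LiKM and 8.34 ± 0.37 in LiK, and Xrcc5 followed at 8.66 ± 1.65 and 7.57 ± 0.864. The standard deviations of Parp1 and Xrcc5 overlapped in both genotypes. At the other end, Exo1 had 0.207 ± 0.113 CPM per kilobase in LiKM and 0.0293 ± 0.0146 in LiK, the lowest of the 45 in both. Rad54l was next, at 0.223 ± 0.129 in LiKM and 0.0373 ± 0.0221 in LiK, within the spread of Exo1. Fancd2 was level with Rad54l in LiK, at 0.0373 ± 0.0225. Polk, at 3.14 ± 0.164 in LiKM and 0.991 ± 0.0633 in LiK, lay above Polh and Poli per length in LiKM, and its spread overlapped that of Rev1 (2.63 ± 0.736). In LiK, Polk lay above Polh (0.754 ± 0.0577) and below Poli (1.80 ± 0.247) and Rev1 (2.26 ± 0.222).

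Libraries differed within LiKM in a way that ran through most of the members. LiKM 2 was the highest LiKM library in 31 of the 45 genes (68.9%), against 30.3% of all genes tested, and LiKM 3 was the lowest in 34 (75.6%), against 37.8%. In LiKM 1, 2 and 3, the recombination and Fanconi genes had a mean log2 CPM that exceeded the LiK mean by 1.18, 1.57 and 0.64. For checkpoint genes these differences were 1.29, 1.68 and 0.77, and for nucleotide excision genes −0.02, 0.07 and 0.04. Among the LiK libraries no library was lowest in more than 17 of the 45.

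Genes of other steps of DNA copying and division were set beside this order. For 12 genes that load and fire the replicative helicase, the differences from the LiK mean were 2.08, 2.64 and 1.13 in LiKM 1, 2 and 3, with LiKM 3 lowest as in the repair genes. For 15 division genes they were 1.92, 2.02 and 2.46, with LiKM 3 highest. Of the helicase genes, 8 of 12 were called higher (66.7%), against 5.11% of all genes tested. Among them were Gins2 (3.11), Mcm5 (3.01) and Mcm6 (2.37). Of the division genes, 13 of 15 were called higher (86.7%), among them Top2a (2.69), Tpx2 (2.33) and Cdk1 (2.19). Some called genes of both lists, such as Gins2, Gins3, Bub1 and Plk1, did not reach the filter's level of 0.481 CPM in every LiK library. A difference was therefore built into their passing. Gins2 rests on 11, 9 and 5 counts in LiK 1, 2 and 3. The part of the helicase and division genes in the repair gene result was not tested.

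**Figure D3:**
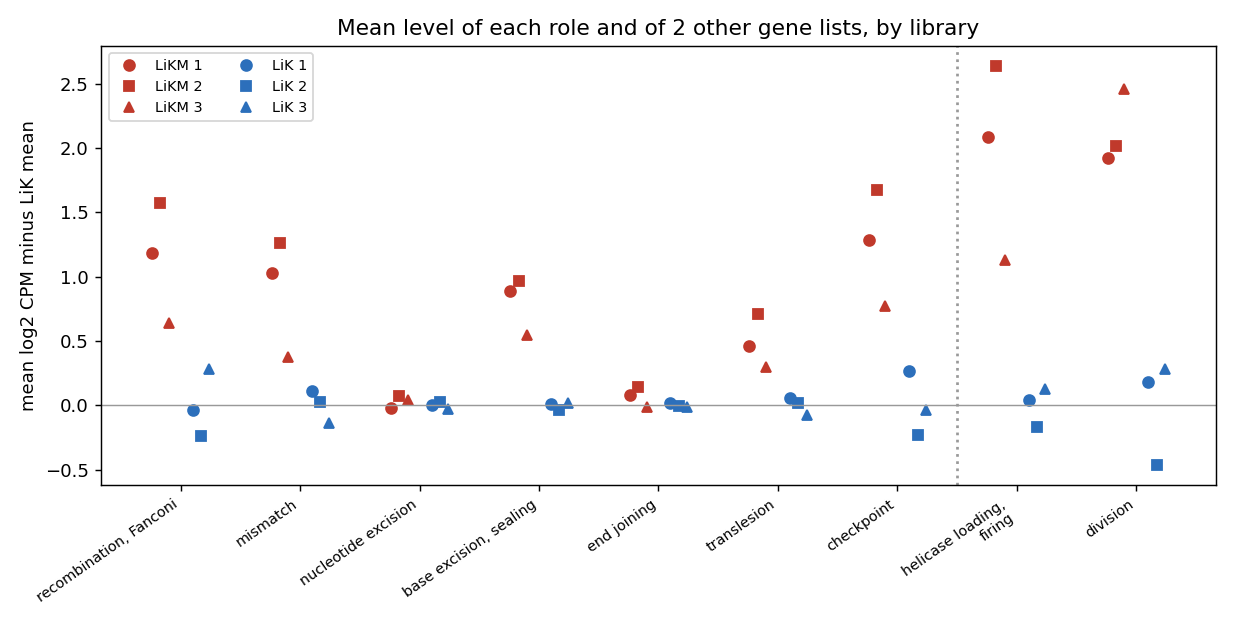
Mean log2 CPM of the genes of each role, minus the LiK mean (y axis), in each library (LiKM red, left; LiK blue, right), with helicase and division genes right of the dotted line. LiKM 3 is the lowest LiKM library for recombination, mismatch, sealing, translesion, checkpoint and helicase genes and the highest for division genes.

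**Figure D4:**
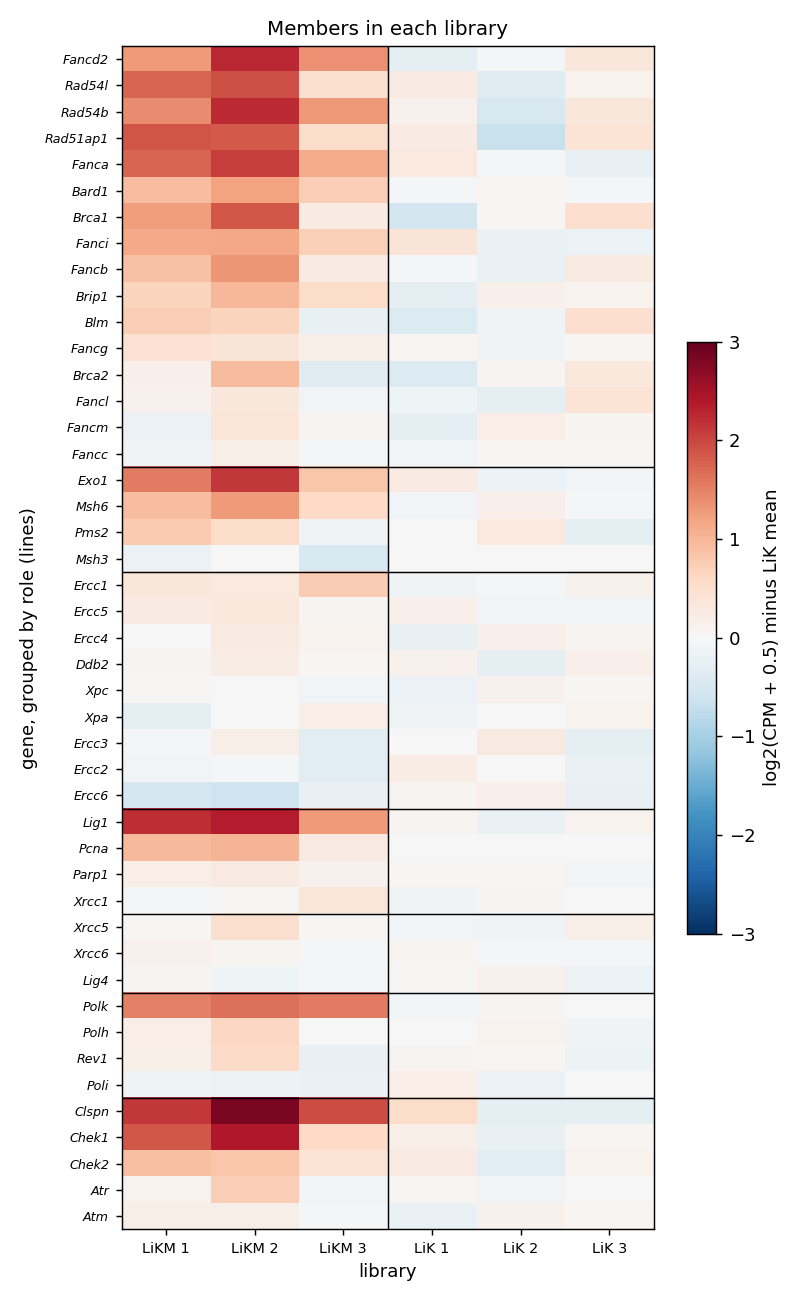
Log2(CPM + 0.5) minus the LiK mean (colour) of each of the 45 genes (rows, by role) in each library (columns, LiKM left of LiK). Red runs through LiKM for Fancd2, Rad54b, Fanca, Exo1, Msh6, Lig1, Polk and Clspn, and is palest in LiKM 3 for most of these, while nucleotide excision and end joining rows stay pale in all 6 libraries.

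Further repair genes, outside the 45, were read from lists of the same pathways. Of 105 tested genes in 7 companion lists, 8 were called higher (7.62%) and 0 lower, near the 5.11% called higher among all genes tested. Their median log2 fold change was 0.13. Other measures lay further from all genes. Of the 105, 18 were at least 2-fold higher (17.1%), against 8.54% of all genes. Every LiKM library was above every LiK library in 28 (26.7%), against 17.8%, and below in 6, against 11.8% of all genes. An unadjusted p under 0.05 in edgeR was found in 31, against 22.4% of all genes. The shares called higher in the nucleotide excision list (5.26%) and the base excision list (5.56%) were also near the 5.11% of all genes. In recombination and crosslink repair, 3 of 27 rose, among them the nuclease subunit gene Eme1 (3.84, SE 0.55) and Hells, a chromatin remodeller (2.41, SE 0.49). Eme1 rests on 1 or 2 counts in each LiK library, and the end joining gene Polq on 5, 4 and 9. Neither reached the filter's level in every LiK library, so a difference was built into their passing. In nucleotide excision 1 of 19 rose, Rpa2, a subunit of the protein that coats single strands (1.37, SE 0.30). In base excision 1 of 18 rose, Fen1, the flap nuclease that works before Lig1 (1.69, SE 0.32), and in end joining 1 of 8, the polymerase gene Polq (2.65, SE 0.43). In checkpoint signalling 2 of 17 rose, Topbp1, an activator of Atr (1.10, SE 0.22), and Mdc1, a scaffold at breaks (0.80, SE 0.16). None of the 6 mismatch repair or 10 translesion companions was called by edgeR, though 2 and 3 of them had an unadjusted p under 0.05, and their most abundant members Rfc1 and Ube2b had log2 fold changes of 0.13 and −0.20.

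Markers of cells other than hepatocytes also differed between the genotypes. T and natural killer cell markers were called higher in 8 of 9 tested members, while 5.11% of all genes tested were called higher. The smallest adjusted p were those of Cd8a, Il2rb and Lck, with log2 fold changes of 4.10, 2.31 and 3.02. Cd8a rests on 4, 3 and 2 counts in LiK 1, 2 and 3, and Lck on 5, 8 and 7. All 8 called markers reached the filter's level of 0.481 CPM in every LiKM library but not in every LiK library. A difference was therefore built into their passing. The uncalled member, Cd4, had the opposite direction, at 1.93, 1.95 and 1.30 CPM in LiKM and 4.96, 3.37 and 1.68 CPM in LiK (log2 fold change −0.94, edgeR adjusted p = 0.234). Summed levels of the list, Cd4 included, were 15.1 to 21.3 CPM in LiKM and 3.86 to 6.93 CPM in LiK, with Cd3e and Nkg7 at 0 in a LiK library each. Macrophage markers were higher in 5 of 10, among them Tyrobp (0.93), Ctss (1.19) and Lyz2 (0.63), with sums of 435 to 589 CPM in LiKM and 276 to 359 CPM in LiK. Stellate and matrix markers were higher in 4 of 10, among them Lum (1.63), Col1a1 (1.57) and Col3a1 (1.53), with sums of 647 to 705 CPM in LiKM and 244 to 402 CPM in LiK. By edgeR, 0 of 5 bile duct, 0 of 8 endothelial and 0 of 6 B cell markers were called, with 3, 4 and 0 at an unadjusted p under 0.05. Bile duct markers summed to 93.7 to 208 CPM in LiKM and 61.6 to 233 CPM in LiK, most of it Spp1, at 83.6, 176 and 180.2 CPM in LiKM and 225, 76.0 and 56.3 CPM in LiK. The other 4 tested bile duct markers, Krt19, Krt7, Epcam and Sox9, did not overlap between the genotypes, with LiKM above and log2 fold changes of 1.61, 0.98, 1.56 and 1.12. Sox9 had 5.97, 5.76 and 18.4 CPM in LiKM and 5.44, 5.18 and 3.28 CPM in LiK, so LiKM 3 alone was far above. LiKM 3 also led Epcam (1.83, 2.00 and 4.58 CPM in LiKM), while Krt7 was even (0.940, 1.04 and 1.11 CPM). Endothelial markers summed to 176 to 266 CPM in LiKM and 179 to 201 CPM in LiK, and B cell markers to 7.03 to 10.2 CPM in LiKM and 4.72 to 10.5 CPM in LiK. None of the 10 hepatocyte markers was called, with 2 at an unadjusted p under 0.05, Hnf4a (−0.48) and Serpina1a (−0.57). Of the 10 log2 fold changes 7 were negative and 3 positive, with a median of −0.28. In 3 of the 10 every LiKM library was below every LiK library and in 0 above. Over all genes tested 11.8% had LiKM below. The part of these cells in the repair gene result was not tested.

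Polk was the only member called whichever library was left out. Its log2 fold change stayed between 1.60 and 1.71 and its edgeR adjusted p between 0.00553 and 0.0344 over the 6 fits. Lig1 was called in 3 of the 6 fits (without LiK 3, LiKM 1 or LiKM 3) and Clspn in 2 (without LiKM 1 or LiKM 3). Bard1, Rad54b, Fanca, Fancd2, Exo1 and Msh6 were called in 1 fit each, the fit without LiKM 3. The number of the 45 genes called higher was 1, 1 and 2 without LiK 1, 2 and 3, and 3, 1 and 12 without LiKM 1, 2 and 3. Without LiKM 3 the added calls were Chek1, Pcna and Rad54l. With 2 mice left in a genotype, between 18 and 525 of all genes were called higher in these fits.

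**Figure D5:**
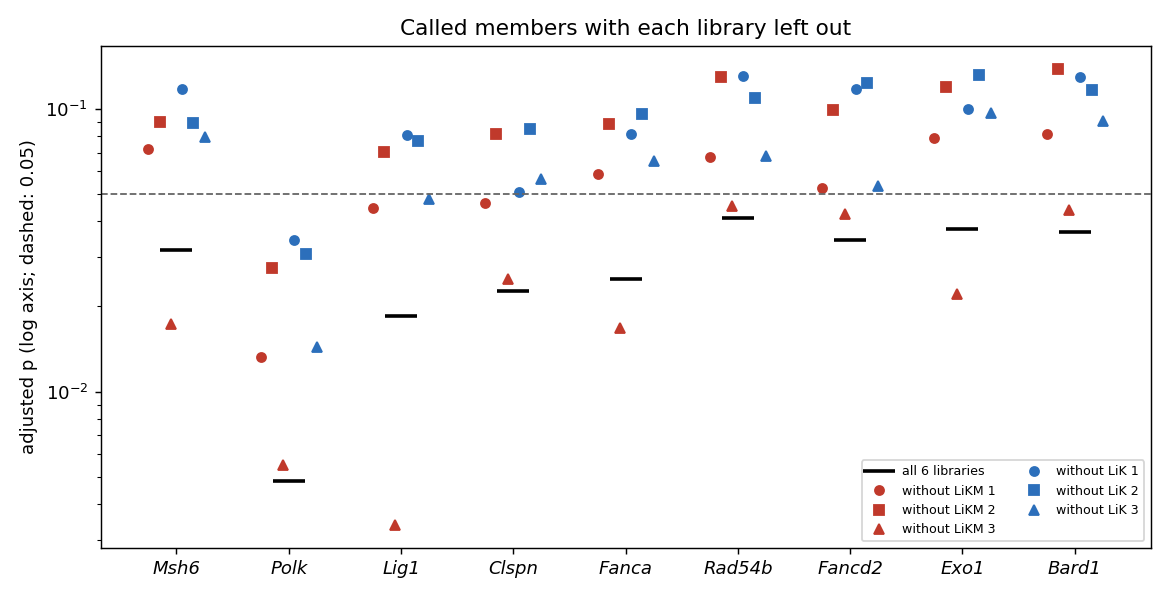
Benjamini-Hochberg adjusted p of edgeR (y axis, log scale, dashed line at 0.05) for the 9 called genes (x axis) with all 6 libraries (black bar) and with each library left out (red, a LiKM library; blue, a LiK library). All 7 values of Polk lie under 0.05, and the other 8 genes exceed it without LiK 1, LiK 2 or LiKM 2.

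Other tests placed more of the members, and more of all genes, past the threshold. DESeq2's Wald test called 15 of the 45 higher and limma-voom with sample weights 16, and both lists held the 9 genes called by edgeR. Over all genes DESeq2 called 1181 of 26608 fitted higher and limma-voom 1063 of 13537, against 692 of 13537 in edgeR. Chek1, Pcna, Fanci, Rad54l, Rad51ap1 and Brip1 were added by both tools. When edgeR had to find changes beyond 1.5-fold, 2 of the 45 remained past the threshold, Lig1 and Polk.

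Some members overlap other genes in GENCODE M21, and since the strand setting of the counting is not given in the sources used here, reads of opposite strands may have been mixed. Among the called genes, Fanca shares 920 exon bases with Zfp276, Fancd2 257 with Fancd2os, Lig1 247 with Zswim9 and Msh6 34 with Fbxo11, all on the opposite strand. The called genes Polk, Clspn, Exo1 and Bard1 share no exon bases with another gene. Of the uncalled genes compared per length, Rad54l shares 1184 exon bases with Lrrc41 and Rev1 1643 with Eif5b, also on the opposite strand. Their levels per length are therefore less certain.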

How the data were processed

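Liver RNA of 6 mice was sequenced after a stranded messenger RNA preparation, per the labels' protocols. The authors deposited raw read counts per gene symbol, whole numbers not normalised, and the submitters' processing notes name featureCounts and FastQC 0.11.7. Which aligner, genome build, annotation and strand setting were used is not given in the sources used here. Each of the 6 columns matched the animal code in a sample title, and 0 columns were left unused. Each title carries its own animal code.

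Genes were kept with edgeR's default filter (about 10 counts in 3 libraries, total of at least 15), which left 13537 of 26608 genes. Counts were scaled by TMM and tested by quasi-likelihood in edgeR 4.0.16 under R 4.3.3, genotype as the only term, Benjamini-Hochberg adjustment over all genes tested, called under 0.05. Log2 fold changes are LiKM over LiK. Standard errors and 95% intervals derive from the coefficient and its F statistic. Role means use log2 CPM with a prior count of 2. Alternatives used DESeq2 1.42.0 and limma 3.58.1. On simulated counts of 13359 genes for this comparison, edgeR recovered 57 of 100 genes changed 2-fold and 99 of 100 changed 4-fold, with 7 false calls. The changed genes were drawn only from genes with higher counts, so these rates do not cover the scarce members.

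The members and lists were chosen with earlier results of these data known. Members called, members with a log2 fold change of at least 1 in size, and up to 2 further members per role with the highest mean CPM are given in every library. Up to 3 called genes of each other list, those of smallest adjusted p, are named, or its most abundant gene; some items are not reported here. Ercc1, Ercc6, Xpc, Ddb2, Cd4 and the bile duct markers, and every other member named, were chosen after their values were seen. List symbols were matched to older symbols for 11 genes through RefSeq synonyms. No list-wide test was run.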

Additional observations from a re-analysis of the deposited data

How the results depend on the processing

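With 3 mice per genotype, changes of about 2-fold are often missed, and scarce members rest on few counts. The 9 calls were unchanged with DESeq2 size factors or upper quartile scaling. Library totals alone put the median of all genes at 0.155, called 1039 genes higher and 63 lower, and added Chek1, Fanci and Pcna to the members (12). The DESeq2 Wald test gave 1181 higher and 365 lower, with 15 members higher, and limma-voom 1063 and 260, with 16 members higher and 1 lower. The test against a 1.5-fold change gave 115 and 12, with 2 members higher. Without a low-count filter 10 members were called, and with at least 1 CPM in 3 libraries 8 of the 42 members left (Exo1 was not tested). The cause of these differences was not tested.

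The replicate number as a block gave 669 genes higher and 166 lower, and 7 members, without Bard1 and Rad54b. Same-numbered libraries' deviations correlated at 0.267, 0 and 0.127. LiKM 1 and LiKM 3 correlated best with the LiK library of the same number, and LiKM 2 with LiK 3 (0.043). These values do not settle whether the numbers pair the mice.

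Leaving out a library gave 18 to 525 genes higher, 1 to 101 lower and 1 to 12 members higher, and the members' median lay between 0.157 (without LiKM 2) and 0.448.

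Signs turned only for uncalled members, with main log2 fold changes between −0.15 (Ercc2) and 0.34 (Brca2). With other scalings or filters these were Fancc (−0.01 with DESeq2 size factors, −0.018 in DESeq2, 0 without a filter), Xpa (0.002 with upper quartile, 0.131 with library totals), Xpc (0.007, 0.137), and with library totals Ercc2 (0.015), Ercc3 (0.107) and Lig4 (0.124). Over the fits without a library the ranges were −0.111 to 0.05 for Fancc, −0.082 to 0.206 for Fancm, −0.036 to 0.374 for Fancl, −0.102 to 0.045 for Xpc, −0.214 to 0.082 for Ercc3, −0.025 to 0.193 for Ddb2, −0.124 to 0.03 for Lig4, −0.179 to 0.069 for Xpa, −0.01 to 0.098 for Xrcc6, −0.144 to 0.586 for Brca2, −0.032 to 0.378 for Rev1, −0.006 to 0.448 for Atr and −0.014 to 0.185 for Xrcc1.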
